A study of Mus musculus with 2 samples.

Results

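The 10 keratin genes Krt8, Krt18, Krt19, Krt7, Krt76, Krt80, Krt20, Krt5, Krt14 and Krt10 were examined in cancer cells of RM-1 tumors, out of 32285 genes in the deposited tables. The genes were taken as a set list and followed in both libraries. RM-1 is a mouse prostate cancer line, and its tumors were grown in mice labelled wild type. Droplet-based scRNA-seq was run on 1 tumor of a mouse given vehicle (control) and 1 tumor of a mouse given the androgen receptor blocker enzalutamide (ENZ), with 1 library each. Dose, time and age are not given in the labels used here, and immune cells were enriched during the study's sorting. With 1 library a condition there was no replicate check, so no p-value is given, and treatment cannot be told apart from mouse, tumor or library.

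The control library held 170830346 unique molecular identifiers (UMIs, counts of single captured transcripts) and the ENZ library held 162030149. Cancer cells were barcodes with at least 8000 UMIs, at most 20% mitochondrial UMIs, at most 1 UMI of the leukocyte gene Ptprc and at least 5 UMIs summed over Cacna2d1, Rbfox2, Kif21a and Rhox5. This gave 3807 control and 4290 ENZ cells, whose median depth was 21957 and 22693.5 UMIs. At least 3 of these 4 genes had a UMI in 96.2% of control and 98.4% of ENZ cells. The libraries had 8 barcodes of cancer cells in common. Levels are given as CPM, from UMIs added up over all cells of a class and scaled to the total of that class, and all intervals are 95% and cover counting error only.

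Keratins are the intermediate filament proteins of epithelial cells. A filament is built from pairs of a type I and a type II keratin, so that an epithelial cell usually makes keratins of both types. Krt8 (type II) and Krt18 (type I) are the usual pair of simple epithelia, and luminal cells of the prostate carry them, often with Krt19 and Krt7. Krt5 and Krt14 are the pair of basal cells.

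At the edge of the gate few cells were found. With 5 to 6 UMIs over the 4 genes there were 24 cells in each library, with Krt8 at 131 CPM (control) and 146 CPM (ENZ). Just outside, with 3 to 4 UMIs, 18 and 7 cells had Krt8 at 94.4 and 17.9 CPM.

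The label was checked against other cell types. Of prostate luminal genes, Pbsn and Hoxb13 were at 0 UMIs in the cancer cells of both libraries, Msmb had 1 UMI with vehicle and 2 with ENZ, and Spink1 had 1 and 12. Epcam, a surface protein of epithelia, was at 3.09 CPM with vehicle and 2.90 CPM with ENZ, and Cdh1, the epithelial cadherin, was at 0.738 and 0.739 CPM. The immune genes Cd52, Coro1a, Laptm5 and Cd53, with Ptprc left out because it chose the cells, summed to 48.5 and 29.0 CPM, against 2787 and 2430 CPM in immune cells. Endothelial genes (6 of 6 above 3 UMIs, highest Cdh5) summed to 74.6 and 66.2 CPM, against 75.8 and 90.6 CPM in immune cells, where Pecam1, which immune cells also express, made up 68.6 and 84.8 CPM. Without Pecam1 the other 5 summed to 65.7 and 57.8 CPM in cancer cells, against 7.24 and 5.81 CPM in immune cells. Mural genes (4 of 4, highest Acta2) summed to 77.9 and 58.3 CPM, against 9.21 and 13.5 CPM, and fibroblast genes (7 of 7, highest Col3a1) to 1045 and 1008 CPM, against 71.3 and 67.3 CPM. Cells within the same UMI, mitochondrial and Ptprc limits but with under 5 UMIs over the 4 genes numbered 167 with vehicle and 74 with ENZ. Barcodes with over 1 Ptprc UMI and over 1 UMI over the 4 genes were in neither the cancer nor the immune class and are not counted here. In the 167 and 74 cells, fibroblast genes summed to 3801 and 8583 CPM, endothelial genes to 519 and 56.8 CPM and mural genes to 170 and 50.3 CPM. Pecam1 made up 116 and 52.9 CPM of the endothelial sums. The 5 immune genes, Ptprc included, summed there to 2134 and 2012 CPM, against 3629 and 3362 CPM in immune cells. These cells thus held immune as well as fibroblast transcripts. In the cancer cells urothelial genes summed to 0.728 and 0.747 CPM, mesothelial genes to 0.898 and 0.730 CPM and basal epithelial genes to 3.35 and 2.66 CPM. The part of these lists in the keratin levels was not tested. The cells so had keratins with Pbsn and Hoxb13 at 0 and little Epcam and Cdh1, and are called cancer cells here by the rule that chose them.

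Krt8 and Krt18 lie side by side on chromosome 15 and are transcribed away from each other. In GENCODE M21 on GRCm38, Krt8 spans chr15:101996698-102004482 on the minus strand and Krt18 spans chr15:102028180-102032027 on the plus strand, with 23697 bases and no annotated gene between them. Krt76 (chr15:101884351-101892920, minus strand) lies 103777 bases from Krt8, with 4 annotated genes between them, of which 3 (Krt4, Krt79 and Krt78) are protein-coding. Their promoter windows are shown because these keratin genes lie near each other on chromosome 15 and are among the most abundant of the list. Each runs from 250 bases before to 50 bases after the start of the gene (RefSeq, GRCm38.p6), 5′ to 3′, at chr15:102004293-102004592 (minus strand) for Krt8, chr15:102027966-102028265 (plus strand) for Krt18 and chr15:101892871-101893170 (minus strand) for Krt76. Capitals mark matches to TATAAA on either strand.
Krt8: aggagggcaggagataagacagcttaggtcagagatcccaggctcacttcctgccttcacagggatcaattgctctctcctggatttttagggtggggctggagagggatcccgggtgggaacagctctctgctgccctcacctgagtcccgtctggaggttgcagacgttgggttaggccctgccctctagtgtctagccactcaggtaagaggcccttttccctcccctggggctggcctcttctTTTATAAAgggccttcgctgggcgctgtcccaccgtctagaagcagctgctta
Krt18: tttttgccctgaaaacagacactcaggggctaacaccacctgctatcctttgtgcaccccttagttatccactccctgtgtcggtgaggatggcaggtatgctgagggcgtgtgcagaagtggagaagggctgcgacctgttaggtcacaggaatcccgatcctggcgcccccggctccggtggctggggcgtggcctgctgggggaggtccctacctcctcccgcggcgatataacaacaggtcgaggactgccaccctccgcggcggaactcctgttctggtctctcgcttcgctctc
Krt76: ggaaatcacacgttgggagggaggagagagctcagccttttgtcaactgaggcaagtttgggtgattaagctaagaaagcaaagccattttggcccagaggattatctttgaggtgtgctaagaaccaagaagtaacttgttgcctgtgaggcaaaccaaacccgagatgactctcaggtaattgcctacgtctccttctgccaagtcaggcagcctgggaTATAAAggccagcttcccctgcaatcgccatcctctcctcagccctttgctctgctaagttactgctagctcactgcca
The Krt8 window held 2 matches, one on each strand and overlapping, the Krt76 window held 1 match and the Krt18 window held 0. TATAAA was in 13.6% of all 32851 RefSeq windows of this length. None of the 3 windows held GGGCGG (35.7% of all windows) or TGANTCA (7.81%), searched on both strands. Windows were found for 8 of the 10 genes, all but Krt19 and Krt80. A match is a description of these letters and not a bound site.

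Krt8, Krt18, Krt19 and Krt76 made up nearly all keratin UMIs of the cancer cells. Krt8 was at 437 CPM (43794 UMIs, interval 433 to 441) with vehicle and 508 CPM (57720 UMIs, interval 503 to 512) with ENZ. Its partner Krt18 was at 357 CPM (interval 354 to 361) and 358 CPM (interval 355 to 362). Krt19, the smallest type I keratin, was at 144 CPM (interval 142 to 147) and 179 CPM (interval 176 to 181).

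Krt76, a type II keratin known from the oral and forestomach lining, followed at 71.3 CPM with vehicle and 78.9 CPM with ENZ. Krt8, Krt18 and Krt19 held 89.4% of the UMIs of all 53 listed keratins with vehicle and 89.6% with ENZ, and 96.1% and 96.3% with Krt76. All keratins together were at 1050 and 1166 CPM.

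The other 6 genes were low or absent. Krt10, the type I keratin of differentiating epidermis, was at 13.7 CPM with vehicle and 13.6 CPM with ENZ. Krt20, known from the urothelium and gut, was at 5.56 and 6.54 CPM (557 and 744 UMIs). Krt80 had 83 and 94 UMIs, or 0.828 and 0.827 CPM.

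Krt7, the usual simple-epithelial companion of Krt19, had 12 UMIs with vehicle and 10 with ENZ (0.120 and 0.0879 CPM). Of the basal pair, Krt5 had 0 UMIs in both libraries, which allows levels of up to 0.0299 and 0.0264 CPM. Krt14 had 6 UMIs in 5 control cells and 0 in the ENZ library. The pair of basal cells was thus not detectable as a pair at this depth.

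**Figure D1:**
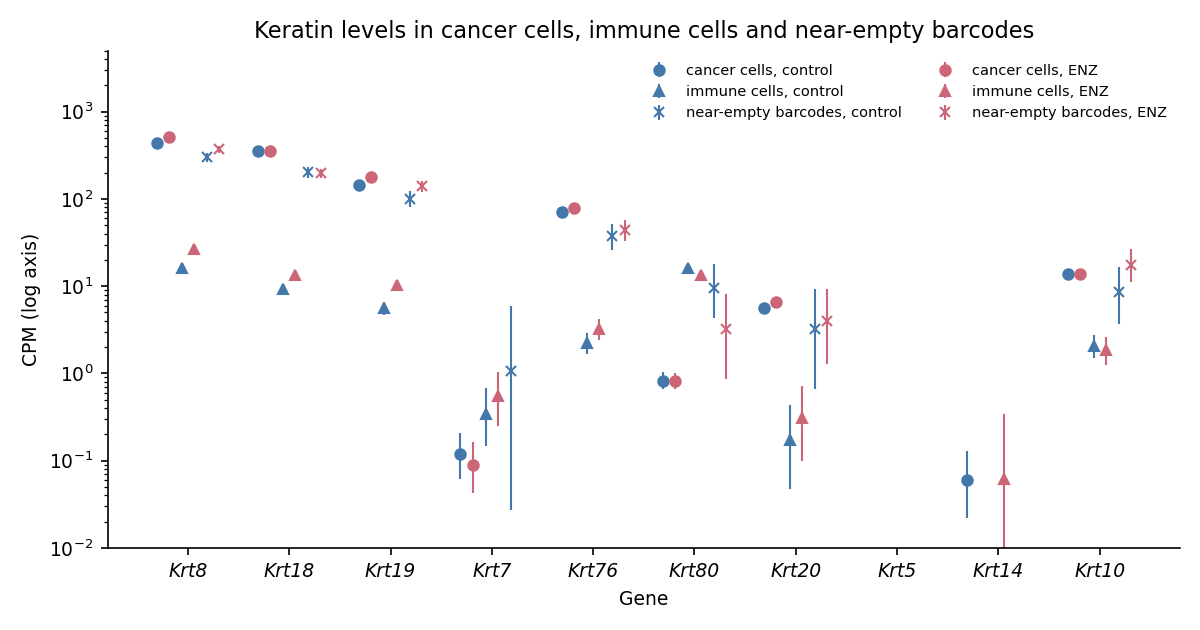
Level of the 10 keratins in CPM on a log axis, for cancer cells (circles), immune cells (triangles) and near-empty barcodes (crosses) of the control and ENZ libraries; bars are exact 95% Poisson intervals and genes with 0 UMIs have no point. Krt8, Krt18, Krt19 and Krt76 lie far above the immune cells, while Krt80 lies below them.

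Between genes, levels were compared per kilobase of exon. On this scale the order was Krt18, Krt8, Krt19, Krt76 in the control, with 249, 223, 77.9 and 30.8 CPM per kilobase. In the ENZ library Krt8 stood at 259 and Krt18 at 249 CPM per kilobase. On this scale the first 2 places thus differed between the libraries, and those of Krt19 and Krt76 did not. In CPM, without the division by length, Krt8 was above Krt18 in both libraries, so the changed order rests on that division. The assay tags 3′ ends, so that length may count for less than in full-length data.

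Summed over the 10 listed genes, with other keratins left out, UMIs of the 5 type I and the 5 type II genes were nearly balanced. Their ratio was 1.02 with vehicle and 0.948 with ENZ, and that of Krt18 to Krt8 was 0.818 and 0.706. In cells thinned to 8000 UMIs, 64.7% of control and 73.1% of ENZ cells had a UMI of both types among the 10 genes, and 9.67% and 7.44% had neither.

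Immune cells and near-empty barcodes served as a measure of free keratin RNA. Immune cells (at least 1000 UMIs, at least 2 Ptprc UMIs, at most 1 UMI over the 4 RM-1 genes) numbered 4055 with vehicle and 3012 with ENZ, with a median of 4418 and 4606.5 UMIs. In these cells Krt8 was at 16.3 CPM with vehicle and 26.5 CPM with ENZ, or 3.73% and 5.22% of the cancer cell level. The share was lower for Krt18 (2.62% and 3.76%), and it was 3.88% and 5.72% for Krt19, 3.12% and 4.11% for Krt76 and 3.08% and 4.67% for Krt20.

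Barcodes of 10 to 100 UMIs were closer to the cancer cells. In these, Krt8 was at 301 CPM with vehicle and 373 CPM with ENZ, or 68.8% and 73.5% of the cancer cell level. Per 100 Krt8 UMIs, Krt19 had 33.1 UMIs in control cancer cells, 34.4 in immune cells and 33.6 in near-empty barcodes, and in the ENZ library it had 35.2, 38.6 and 37.5. Krt18 had 81.8, 57.5 and 67.1 in the control and 70.6, 50.8 and 52.5 with ENZ, and so was lower against Krt8 outside the cancer cells.

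At 1000 UMIs a cell, a Krt8 UMI was in 26.9% of control and 32.3% of ENZ cancer cells, against 2.32% and 2.76% of immune cells. Without thinning the shares were 86.8% and 91.9% of cancer cells and 8.95% and 13.1% of immune cells. For Krt76 the thinned shares were 4.62% and 5.85% of cancer cells against 0.271% and 0.365% of immune cells. Both genes were so above the background that immune cells give, in both libraries.

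Krt80 and Krt10 stood apart from this pattern. In immune cells Krt80 was at 16.1 CPM (377 UMIs) with vehicle and 13.4 CPM (219 UMIs) with ENZ, which is 19.5 and 16.2 times its level in cancer cells. It was at 16.4 and 15.2 CPM in cells of the macrophage gate (at least 10 UMIs of the complement genes C1qa, C1qb and C1qc), at 11.4 and 21.5 CPM in those of the neutrophil gate, at 19.0 and 16.1 CPM in immune cells of no gate, and at 2.31 and 0.684 CPM in those of the T cell gate. Krt80 UMIs in cancer cells so lay below the immune background.

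Krt10 in immune cells was at 2.06 and 1.83 CPM, or 15.1% and 13.4% of its cancer cell level, a larger share than for Krt8, Krt18, Krt19, Krt76 and Krt20. Krt7 was at 0.343 and 0.550 CPM in immune cells (8 and 9 UMIs), not below its cancer cell level. Of the 10 genes, 6 (Krt8, Krt7, Krt76, Krt80, Krt5 and Krt10) overlap a noncoding gene on the opposite strand. For Krt76 and Krt5 this is a miRNA gene, and Krt80 overlaps the antisense gene Gm35853 and the miRNA gene Mir1941. Gm35853 had 154 UMIs in control and 82 in ENZ immune cells. Whether strand was used in counting is not given in the sources used here, so the UMIs of such pairs cannot be told apart with certainty.

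Cancer cells differed widely in Krt8 and Krt18. In cells thinned to 8000 UMIs, a Krt8 UMI was found in 74.9% (interval 73.5 to 76.3) of control and 83.0% (interval 81.8 to 84.1) of ENZ cells. For Krt18 these shares were 66.4% and 70.9%, for Krt19 38.1% and 47.6%, and for Krt76 25.4% and 29.7%. For Krt10 they were 10.1% and 9.51%, and for Krt20 3.26% and 3.85%.

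The sum of Krt8 and Krt18 had a median of 3 UMIs in control and 5 UMIs in ENZ cells, with a highest value of 41 and 45. It was 0 in 543 control cells (14.3%) and 441 ENZ cells (10.3%), and 10 or more in 645 (16.9%) and 917 (21.4%). The 95th percentile was 16 UMIs in both libraries, while the 75th was 7 UMIs in control and 9 in ENZ cells.

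**Figure D2:**
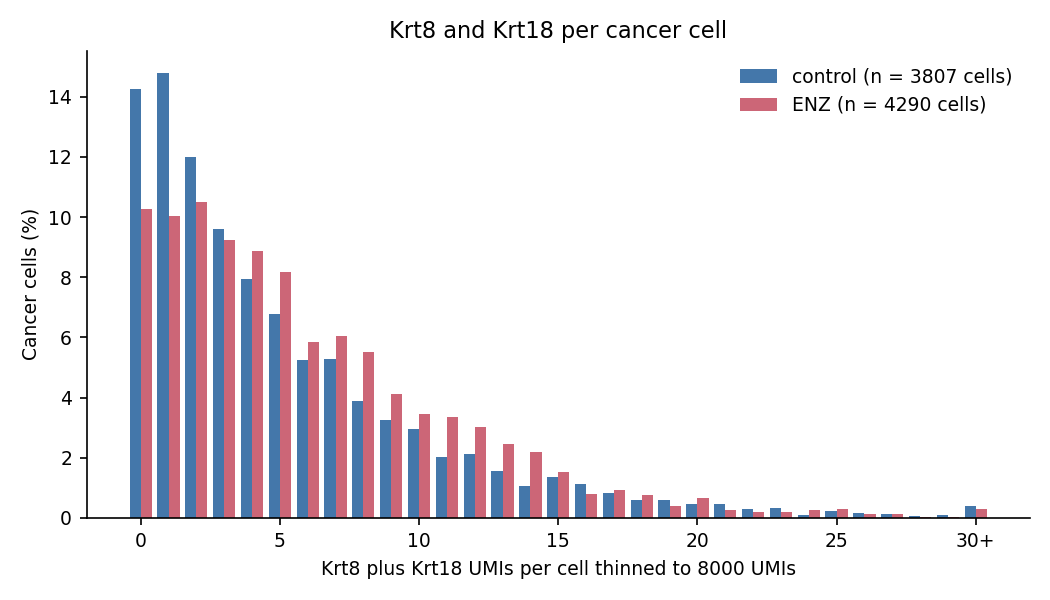
Share of cancer cells (%) by the sum of Krt8 and Krt18 UMIs after thinning each cell to 8000 UMIs, for 3807 control and 4290 ENZ cells; the last bar holds 30 or more. Cells with 0 UMIs are 14.3% of the control and 10.3% of the ENZ cells.

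The variance over the mean (Fano factor, 1 for random sampling of equal cells) was 3.78 in control and 3.43 in ENZ cells for Krt8, 3.85 and 2.93 for Krt18, and 3.25 and 2.93 for Krt19. It was 1.94 and 1.77 for Krt76 and near 1 for Krt10, at 1.06 and 1.08. The Fano factor grows with the mean, so that a rare gene lies near 1 at the same relative spread. Its excess over 1 divided by the mean was 0.571 and 0.787 for Krt10, 0.980 and 0.679 for Krt8, and 1.23 and 0.809 for Krt18, and was higher for Krt19 (2.42 and 1.59) and Krt76 (2.19 and 1.59). Krt20 was rare but clumped, with 22.6 and 20.7. Cells of 5 or more Krt20 UMIs before thinning numbered 15 with vehicle and 10 with ENZ, and held 24.6% and 10.9% of all Krt20 UMIs.

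Krt8, Krt18 and Krt19 varied together across cells. Spearman's rho of Krt8 with Krt18 was 0.51 over 3807 control cells and 0.50 over 4290 ENZ cells, all thinned to 8000 UMIs. It was 0.47 and 0.48 for Krt8 with Krt19, and 0.44 and 0.45 for Krt18 with Krt19. Krt76 followed them loosely, at 0.18 and 0.24 with Krt8, although Krt76 shares chromosome 15 with Krt8 while Krt19 lies on chromosome 11. Krt76 also had fewer UMIs, with a mean of 0.43 and 0.49 a thinned cell against 0.93 and 1.22 for Krt19. The part of this in its lower rho was not tested. Cells of a library share their tumor and preparation, so these are descriptions.

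**Figure D3:**
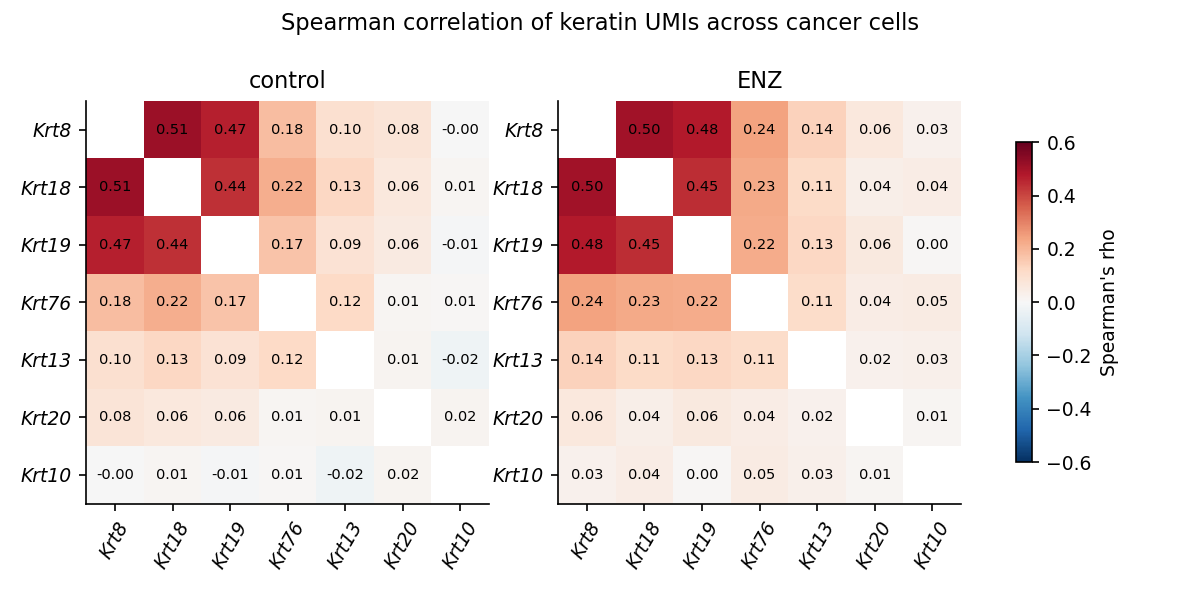
Spearman's rho between pairs of keratins across cancer cells thinned to 8000 UMIs, in the control and ENZ libraries; the color scale runs from -0.6 to 0.6. Krt8, Krt18 and Krt19 form a block of 0.44 to 0.51, and Krt10 and Krt20 are near 0.

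Other genes followed the sum of Krt8 and Krt18 about as closely as Krt19 did. Among 3308 genes of at least 50 CPM in both libraries, the mean rho over the libraries with the sum of Krt8 and Krt18 had a median of 0.00 and a 95th percentile of 0.19. The 10 highest were S100a6 (0.52), Krt19 (0.52), S100a10 (0.51), Gapdh (0.51), Lgals1 (0.47), Eno1 (0.43), Mif (0.42), Rps2 (0.42), Eif5a (0.42) and Vim (0.41). S100a6 and S100a10 are small calcium-binding family proteins, Gapdh and Eno1 are enzymes of glycolysis, and Vim is the intermediate filament of mesenchymal cells. These genes differ in level, with S100a6 at 5068 CPM with vehicle and 5423 CPM with ENZ against 144 and 179 CPM for Krt19. The part of level in this order was not tested.

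The 5 lowest were Adgrl3 (-0.42), Tshz2 (-0.40), Col1a1 (-0.38), Fn1 (-0.37) and Gm42418 (-0.37). Col1a1 and Fn1 make the matrix proteins collagen I and fibronectin, and Gm42418 is an rRNA-like transcript that held 1.08% of control and 2.92% of ENZ cancer cell UMIs. Krt76 was at rank 74, with a mean rho of 0.25.

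Cells low in Krt8 and Krt18 were higher in the collagen gene Col1a1. Before thinning, cells with 0, 1 to 9 and at least 10 UMIs of the pair also differed in depth, with median totals of 15837, 21292 and 30564 UMIs with vehicle and of 16209, 21647 and 29559 UMIs with ENZ. In control cells with 0, 1 to 9 and at least 10 UMIs of the pair, Col1a1 was at 1108, 268 and 81.0 CPM and Dcn, a fibroblast proteoglycan, at 158, 16.8 and 11.2 CPM. The 4 genes that chose the cells did not move together over these ranges. Rhox5 was at 723, 994 and 1232 CPM, while Cacna2d1 was at 173, 145 and 105 CPM, Rbfox2 at 355, 295 and 233 CPM and Kif21a at 265, 273 and 244 CPM. In the ENZ library Col1a1 was at 1478, 256 and 53.3 CPM, Rhox5 at 570, 843 and 1023 CPM, Cacna2d1 at 219, 177 and 142 CPM and Rbfox2 at 393, 320 and 263 CPM. Cells with at least 10 Dcn and Lum UMIs numbered 48 with vehicle and 57 with ENZ, with a median of 1 Rhox5 UMI in both and of 1 and 0 UMIs of Krt8 and Krt18 together. In the other cancer cells these medians were 22 and 19 for Rhox5 and 10 and 15 for the pair. Of the 48 and 57 cells, 32 and 47 were in the range of 0 keratin UMIs. Without them Col1a1 was at 464, 226 and 70.3 CPM over the ranges with vehicle and at 374, 209 and 53.3 CPM with ENZ, Dcn was at 15.9, 5.80 and 2.34 CPM and at 15.9, 7.10 and 1.09 CPM, and the rho of Krt8 with Krt18 was 0.51 and 0.49. Col1a1 was also read among cells of like depth, a split chosen, like the one before, after seeing the data. The cells rich in Dcn and Lum were kept in these bins. In the lowest of 4 bins of cells by UMIs, Col1a1 was at 1003, 389 and 140 CPM with vehicle and at 928, 370 and 108 CPM with ENZ. In the highest bin it was at 1264, 161 and 55.0 CPM and at 312.5, 95.3 and 35.5 CPM. At 0 UMIs of the pair, Dcn was at 196 CPM with vehicle and 275 CPM with ENZ in the lowest bin. In the highest bin it was at 123 and 11.7 CPM. The part of the cells rich in Dcn and Lum in the Col1a1 levels by bin was not tested.

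Levels of Krt8, Krt18, Krt19 and Krt76 went up with the UMIs of a cell in both libraries. Cells of each library were divided into 4 bins of equal cell number by their UMIs. From the lowest to the highest bin, Krt8 went from 195 to 559 CPM with vehicle and from 278 to 607 CPM with ENZ. Krt18 went from 129 to 472 and from 158 to 457 CPM, and Krt19 from 46.5 to 193 and from 71.7 to 222 CPM. Krt76 had the steepest course of these, from 14.5 to 101 and from 19.5 to 107 CPM. Krt10 and Krt20 followed depth little. Krt10 was at 10.9 and 14.3 CPM in the lowest and highest bin with vehicle and at 11.5 and 15.2 CPM with ENZ. Krt20 was at 4.87, 3.55, 5.62 and 6.46 CPM over the bins of the control and at 4.56, 6.78, 6.91 and 6.77 CPM over those of the ENZ library.

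**Figure D4:**
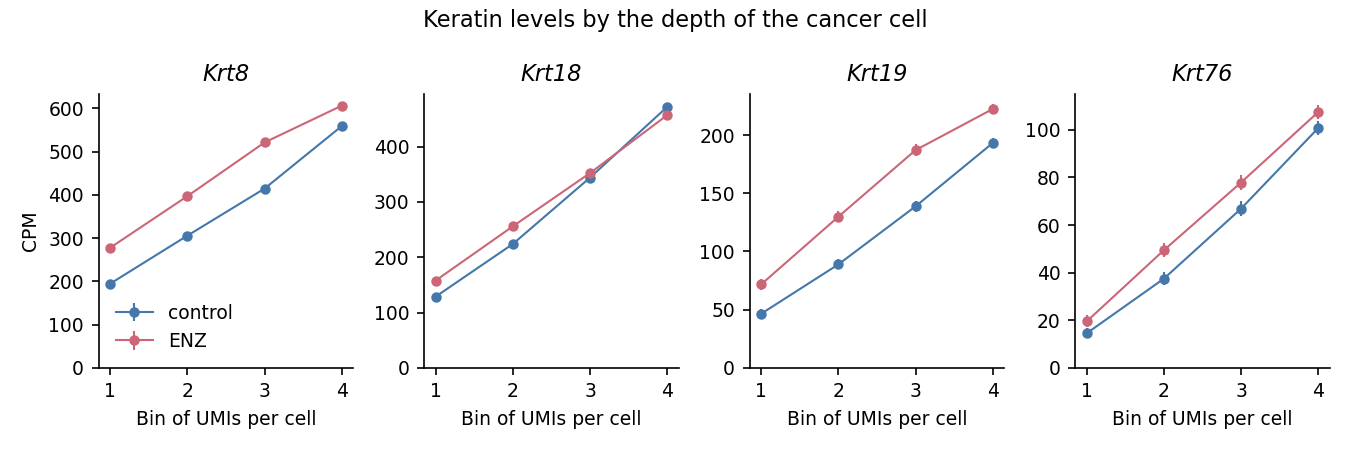
Level (CPM) of Krt8, Krt18, Krt19 and Krt76 by bin of UMIs per cancer cell (4 bins of equal cell number in each library) and exact 95% Poisson intervals. All 4 genes climb with depth, and the ENZ to control ratio of Krt8 and Krt19 is nearest to 1 in the highest bin.

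Cells with many UMIs of cell cycle genes differed from those with few in the levels of 4 keratins. Cells were ranged by the thinned UMIs of Mki67, Top2a, Cenpf, Ube2c, Birc5, Cdk1 and Ccnb1, genes of the cell cycle, and those with at least 10 had a median of 31092 UMIs with vehicle and 33871 with ENZ, against 17819.5 and 19304 in those with 0 to 1. As depth moved with these ranges, levels were compared within the highest bin of UMIs. There Krt19 was at 308 CPM in 250 control cells with 0 to 1 and at 131 CPM in 484 cells with at least 10, and at 328 and 167 CPM in 321 and 536 ENZ cells.

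Krt8 in the same bin was at 753 and 440 CPM with vehicle and at 786 and 488 CPM with ENZ. Krt18 was at 570 and 398 CPM and at 502 and 425 CPM. Krt76 went the other way, at 79.1 and 106 CPM and at 87.0 and 117 CPM. Cells with 2 to 9 cell cycle UMIs in this bin lay between for Krt19, at 213 and 225 CPM, and for Krt8, at 627 and 673 CPM, and for Krt18, at 539 and 481 CPM. For Krt76 they were at 112 and 111 CPM, above the lowest range in both libraries and close to the cells with at least 10. The lowest bin, with 69 control and 44 ENZ cells of at least 10 cell cycle UMIs, did not show the same order. There Krt8 was at 189 and 186 CPM with vehicle and 272 and 296 CPM with ENZ, and Krt18 was at 111 and 157 CPM and at 150 and 192 CPM. Krt19 was at 42.8 and 42.9 CPM with vehicle and at 66.7 and 118 CPM with ENZ. Krt76 was again higher in cells with many cell cycle UMIs, at 12.9 and 35.5 CPM and at 17.1 and 59.8 CPM.

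Between the libraries, none of the more abundant keratins differed by 1.5-fold. Of the 10 genes, 5 had a mean of at least 10 CPM over both libraries, and 0 of these 5 were past 1.5-fold, against 1.2% of 8592 genes in either direction (0.407% higher and 0.791% lower in ENZ). At that background a count of 0 of 5 says little about the keratins. The median log2 ratio of ENZ over control was 0.15 for the 5 and 0.05 for all 8592 genes.

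Krt8 had a ratio of 1.16 (interval 1.15 to 1.18, log2 0.22), at percentile 82.9 of these genes. Krt19 had 1.24 (interval 1.21 to 1.26, log2 0.31), at percentile 93.6, and Krt76 had 1.11 (interval 1.07 to 1.14, log2 0.15). Krt18 had a log2 ratio of 0.00 at percentile 42.7, so that over all cancer cells the difference in Krt8 was beyond counting error and that in Krt18 was not. In cells of 10 or more and of 2 to 9 cell cycle UMIs, however, Krt18 had ratios of 1.11 (interval 1.08 to 1.13) and 0.884 (interval 0.858 to 0.910).

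The ratios of Krt8, Krt19, Krt76 and Krt18 differed between the bins of depth. Bins were cut in each library on its own, so that their depth was not matched. Their median UMIs were 12256, 18215, 26308 and 42666 with vehicle and 12915, 19204.5, 26753.5 and 41900 with ENZ. The part of this mismatch in the ratios was not tested. From the lowest to the highest bin of UMIs, the ratio of Krt19 was 1.54, 1.46, 1.35 and 1.15, and that of Krt8 was 1.43, 1.30, 1.26 and 1.08. For Krt76 it was 1.34, 1.32, 1.16 and 1.07. For Krt18 it was 1.23, 1.14, 1.02 and 0.968, so that its overall ratio near 1 joined bins above and below 1. Krt20, at a ratio of 1.18 (interval 1.05 to 1.32) over all cancer cells, had 1.91 (interval 1.41 to 2.62) in bin 2 and 0.937, 1.23 and 1.05 in the other bins, with intervals that held 1. Free Krt8 and Krt19 RNA was also higher in the ENZ library, as the immune cells and near-empty barcodes show. With the mean profile of 1 near-empty barcode subtracted from each cell, which is less Krt8 than an immune cell held on average, the log2 ratios were 0.22 for Krt8 and 0.31 for Krt19. The part of free RNA in these ratios beyond that was not tested.

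**Figure D5:**
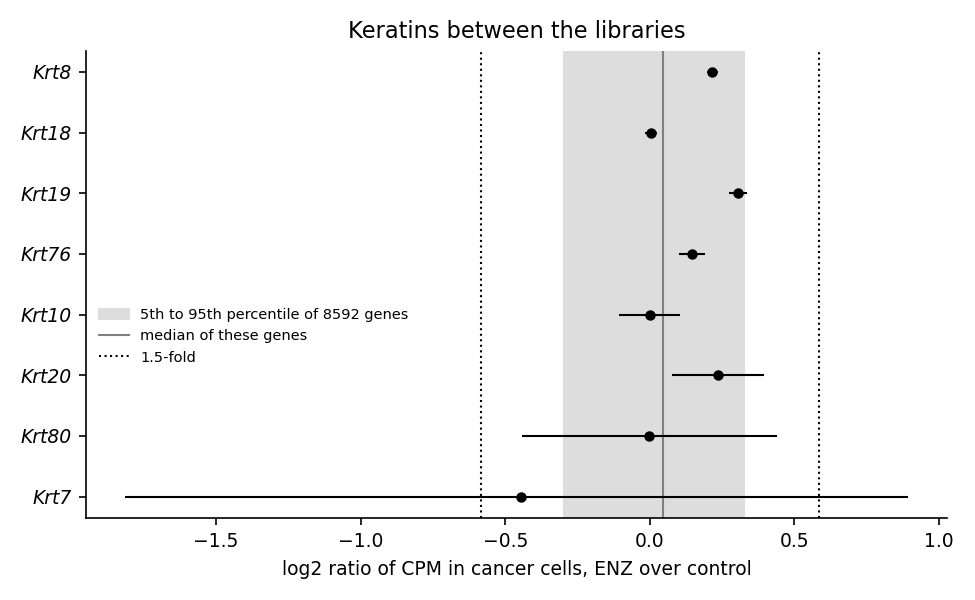
log2 ratio of CPM in cancer cells, ENZ over control, for the 8 keratins with UMIs in both libraries, with exact 95% intervals for counting error; the grey band is the 5th to 95th percentile of 8592 genes and dotted lines mark 1.5-fold. Krt8, Krt18, Krt19 and Krt76 lie inside the band, and Krt7 has too few UMIs for a narrow interval.

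Genes that work with keratins were followed as set lists, and their counts are read against the background of 0.407% higher and 0.791% lower among all 8592 genes. Of 12 desmosome and plakin genes, which anchor keratin filaments, 4 had a mean of at least 10 CPM, with 0 higher and 0 lower by 1.5-fold and a median log2 ratio of 0.29, and 6 were under 1 CPM. Those of the highest level were the cytolinkers Dst (372 CPM with vehicle and 454 CPM with ENZ) and Plec (232 and 285 CPM), and the junction protein Jup (55.4 and 52.0 CPM).

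Of 10 other intermediate filament genes, 4 had a mean of at least 10 CPM and 0 were past 1.5-fold, with a median log2 ratio of -0.04. Vim was at 2325 and 2175 CPM, above every keratin in CPM, and the nuclear lamin genes Lmna and Lmnb1 were at 602 and 571 CPM and at 81.7 and 81.5 CPM. Of 12 epithelial adhesion genes only Tjp1, of tight junctions, had a mean of at least 10 CPM, at 124 and 142 CPM (log2 ratio 0.19), and it was not past 1.5-fold. Next in level were the junction gene F11r (9.08 and 8.78 CPM) and the protease inhibitor gene Spint2 (6.43 and 2.88 CPM).

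Of 12 epithelial regulators, the factors Klf4 (25.5 and 32.4 CPM) and Klf5 (20.4 and 25.4 CPM) had a mean of at least 10 CPM, with neither past 1.5-fold and a median log2 ratio of 0.33. Grhl2 followed at 3.60 and 3.74 CPM, and 7 of the list were under 1 CPM. Of 12 genes of keratin turnover and modification, 9 had a mean of at least 10 CPM, with a median log2 ratio of 0.08, and of these 0 were higher and 1 was lower by 1.5-fold. This was Hspb1, a small heat shock protein, at 323 CPM with vehicle and 208 CPM with ENZ (ratio 0.644, interval 0.633 to 0.655).

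Among the 43 other listed keratins, 4 had at least 1 CPM in both libraries. Krt13, a type I keratin of stratified lining that lies near Krt19 on chromosome 11, was at 11.8 CPM with vehicle and 14.1 CPM with ENZ. Krt15 was at 3.07 and 2.49 CPM, Krt16 at 1.87 and 1.84 CPM, and Krt27 at 1.34 and 1.47 CPM. Of the 43, 16 had 0 UMIs in both libraries.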

How the data were processed

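Droplet-based scRNA-seq was measured in 1 vehicle and 1 ENZ library. The deposited tables hold UMI counts of each gene in every barcode, which the authors had neither filtered nor normalized. The file header names Cell Ranger 7.2.0 and the submitters' processing notes name Cell Ranger 2.1.1 and mm10, so the version is uncertain. Whether intronic reads were counted is not given in the sources used here.

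From these counts, cells were chosen by UMI limits alone, without clustering. No doublet caller was run, and barcodes with over 1 Ptprc UMI were left out of the cancer cells. UMIs were summed per library as CPM. Levels have exact Poisson, ratios exact conditional binomial and shares Clopper-Pearson intervals at 95%. Cells were thinned to 8000 UMIs without replacement (seed 1). A fold of 1.5 was read among genes with a mean of at least 10 CPM, and a count of 0 was read as up to 3 UMIs. Named genes were the 10 keratins, genes of set lists (those past the fold, or else the 3 of the highest level), and the 10 genes most and 5 least correlated with Krt8 and Krt18. Epcam, Cdh1, Dcn, Rhox5, Gm35853 and the other keratins were named beyond that rule, and the levels by cell cycle within bins of UMIs and the cells rich in Krt20, and the spread set against the mean, were chosen after values had been seen. The members and lists were chosen with earlier results of these data known. Not every marker gene is reported here. Alternatives covered the cell limits, scaling, free RNA and thinning. Steps were checked on simulated data. Tools were scipy 1.17.1, pandas 2.3.3 and matplotlib 3.10.9, under numpy 2.4.6 in Python 3.11.15.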

Additional observations from a re-analysis of the deposited data

How the results depend on the processing

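No paired analysis was possible because vehicle and ENZ had 1 library each, and no replicate could be left out. Alternatives were run for the 8 listed keratins with UMIs in both libraries. None of their log2 ratios whose interval left out 0 changed sign, and the number of keratins past 1.5-fold was 0 under all 14 alternatives, a lower fold included. The log2 ratio of Krt8, 0.22, was 0.19 with at least 15000 UMIs, 0.29 without the 5% of cells with the most UMIs, 0.31 with CPM averaged over cells and 0.17 with median-of-ratios scaling. In the same order Krt18, 0.00, was -0.020, 0.055, 0.077 and -0.042, and it was 0.032 with Ptprc at 0 UMIs. Krt19, 0.31, was 0.36, 0.41 and 0.26 under the last 3. The direction of Krt18 thus depended on the setting. The correlation of Krt8 and Krt18 was 0.40 (control) and 0.37 (ENZ) with the same cells thinned to 4000 UMIs, so its size depends on depth. It was 0.64 and 0.57 at 20000 UMIs (added after seeing the data), which also left out shallower cells and kept 2144 control and 2551 ENZ cells, and it was 0.48 in the ENZ library with at least 3 of the 4 RM-1 genes. Genes past 1.5-fold numbered 103 of 8592 (1.2%), against 43 of 3499 (1.23%) at a mean of at least 50 CPM and 494 of 13509 (3.66%) at 1 CPM. Leaving out cells rich in Dcn and Lum and asking for at least 3 Rhox5 UMIs left Krt8, Krt18 and Krt19 within their counting intervals. The subtraction of free RNA took too little from each cell to move a ratio and bears on none of them.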
